A study of Saccharomyces cerevisiae with 14 samples.

Results

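The response of Saccharomyces cerevisiae strain FF18984 to 1 h of 0.00125% methyl methanesulfonate (MMS) was read on 4 of the 14 membrane arrays of the series, 2 treated and 2 mock. FF18984 received 0.00125% MMS either in F1, a minimal medium, or in YPD, a rich one, and each treated array was set against the mock-treated array of its own medium. Per the labels, every culture was grown to mid log phase at 30°C and then divided into mock, low-dose and high-dose aliquots, so that treated and mock cells of a medium came from 1 culture. Total RNA of each aliquot was turned into 33P-labelled cDNA, and the samples that share a medium and a time went one after another onto 1 membrane, stripped in between, in an order that is not given. The labels name the strain without its genotype. Each condition has 1 array, so the only replication is the pair of media. The p-values rest on a spread that limma modelled over the genes of these arrays, and cover no repeat of a culture within a medium.

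MMS methylates DNA bases and leaves lesions such as 3-methyladenine, which blocks replication and is removed in yeast by the glycosylase Mag1 and the base excision pathway. Cells that sense the damage through the kinases Mec1, Rad53 and Dun1 raise the transcription of the ribonucleotide reductase genes, which make the building blocks of DNA, and at higher doses MMS also evokes a broad stress programme in which ribosomal genes fall and chaperone, proteasome and glutathione genes rise. These are background facts on the pathway and not results of the arrays.

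Levels below are log2 intensities after subtraction of the local background and scaling of each array to its own median. They were averaged over the 2 spots of each of 6094 genes and then quantile normalised over the 14 arrays. On this scale 1 unit stands for 2-fold. The treated arrays were fainter than the mock arrays on the deposited scale, with a median signal of 167 in F1 and 234 in YPD with MMS, against 8650 in F1 and 3241 in YPD in mock. A signal at or below the local background was found for 16.1% of genes in F1 and 23.1% in YPD with MMS, against 2.58% and 11.2% in mock, and 4109 genes lay above the background in all 4 arrays. The Spearman correlation between the spots of a gene was 0.731 in F1 and 0.728 in YPD with MMS, against 0.902 and 0.795 in mock. The part of this difference in brightness in the results was not tested.

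The question of the comparison is which genes move at a dose of MMS that is low for this agent. In all, 293 genes differed from mock by at least 1 in the same direction in both media, which is 4.81% of the genes measured. Of these, 122 genes (2%) were higher with MMS and 171 (2.81%) were lower, while 80 genes (1.31%) moved by at least 1 in opposite directions. A change of that size in 1 medium was more common, with 1084 genes in F1 and 1834 in YPD. Counting any size, 31.1% of genes were higher in both media, 29.7% were lower in both and 39% went opposite ways. Across genes, the F1 and YPD differences had a Pearson correlation of 0.279, and the pairs share no array.

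**Figure D1:**
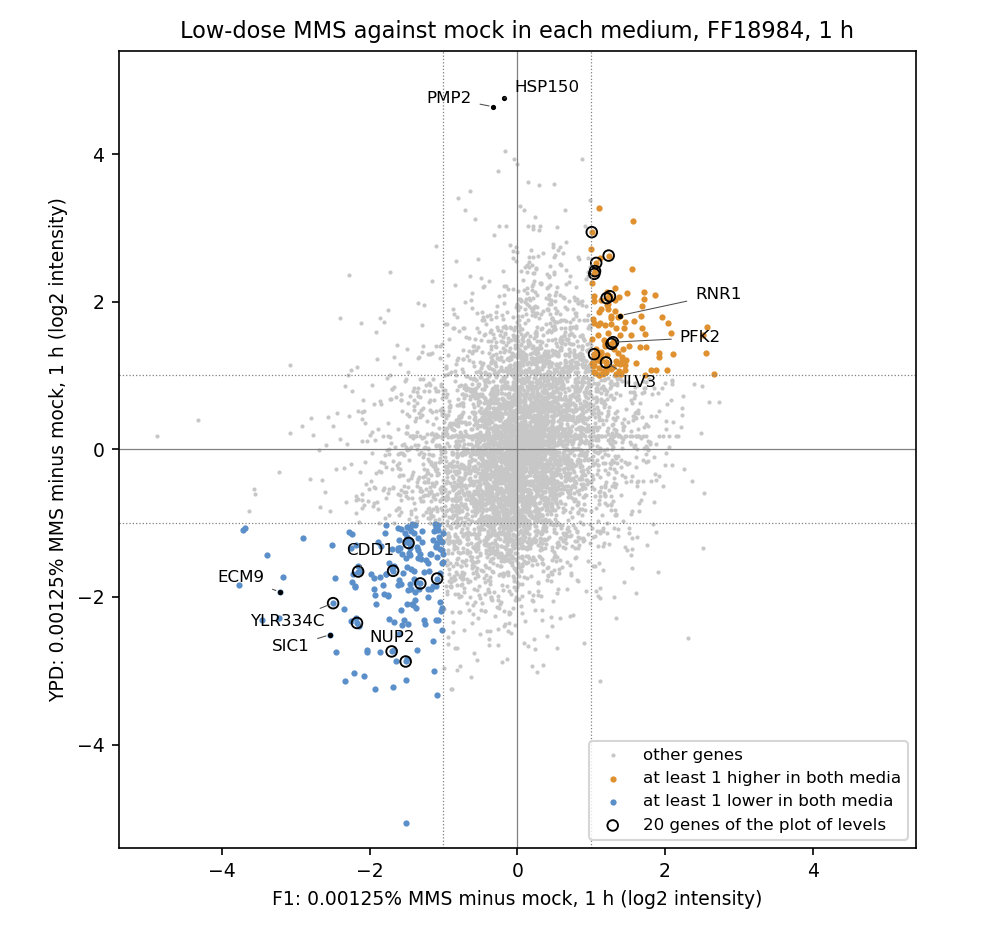
Difference between 0.00125% MMS and mock at 1 h for each of 6094 genes (points), on the log2 scale, in F1 (x axis) and in YPD (y axis). The 122 genes at least 1 higher and the 171 at least 1 lower in both media are coloured, rings mark the 20 genes whose levels are plotted by array, and HSP150 and PMP2 stand high in YPD alone.

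Dim signals bear on the genes that were lower in both media. Of the 171 lower genes, 120 lay at or below the background in at least 1 treated array, 63 of them in both, and 51 were above the background in all 4 arrays. Of the 122 higher genes, 36 lay at or below the background in a mock array, and 86 were above the background in all 4. Among the 4109 genes above the background throughout, 137 went the same way in both media, 86 higher and 51 lower, and 21 went opposite ways. Of all 6094 genes, 1805 lay at or below the background in at least 1 treated array and 735 in a mock array. The lower genes were more often at the background than the higher ones, but genes picked for a low treated signal tend to lie there by that choice.

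In limma's paired fit, 130 genes (2.13%) passed a Benjamini-Hochberg adjusted p of 0.05, 71 higher (1.17%) and 59 lower (0.968%), and 891 genes had an unadjusted p under 0.05. The fit has 1 residual degree of freedom, and limma took the spread of each gene wholly from the trend on mean intensity, so that a gene whose media disagree can still pass. The calls depended on that: no gene passed without the trend, and 2 or 3 genes passed after quantile normalization over the 4 arrays alone or cyclic loess. Of the 130 genes, 102 had the larger change in YPD, and 41 differed by under 0.5 or in the opposite direction in 1 medium. In 56 the change was at least 1 the same way in both media, and 20 of these, 11 higher and 9 lower, were above the background in all 4 arrays. These 20 genes are described first, with their values in every array, and a gene is said below to have risen or fallen where it passed in this fit.

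NUP2, YLR334C and CDD1 fell in both media. NUP2, which encodes a nucleoporin of the nuclear basket, had levels of 1.09 in F1 and 0.97 in YPD with MMS, against 3.26 in F1 and 3.32 in YPD in mock. Both treated arrays lay below both mock arrays, with differences of -2.17 in F1 and -2.35 in YPD. The mean of -2.26 ± 0.35 (SE from the limma trend, n = 2 pairs) passed with an adjusted p of 2.41e-07 in limma. This SE is the one expected at that intensity, not the spread of the 2 pairs of NUP2. The spots of NUP2 differed from mock by -2.05 and -2.28 in F1 and by -2.62 and -2.23 in YPD, so each of the 4 spot pairs was lower.

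YLR334C, an open reading frame of unknown function, had levels of 2.54 in F1 and 2.03 in YPD with MMS, against 5.04 in F1 and 4.11 in YPD in mock. The difference was -2.50 in F1 and -2.08 in YPD and passed with an adjusted p of 1.78e-06 in limma. CDD1, the cytidine deaminase of pyrimidine salvage, had levels of 3.09 in F1 and 2.48 in YPD with MMS, against 5.25 in F1 and 4.14 in YPD in mock. Its difference of -2.16 in F1 and -1.66 in YPD passed with an adjusted p of 0.000715 in limma. For both genes the treated arrays lay below both mock arrays. NUP2 passed in 10 and YLR334C in 8 of the 17 other settings tried, counting a robust prior that gave the same calls as the main fit. NUP2, YLR334C, CDD1 and DAL81 were the 4 of the 20 genes that kept a difference of at least 1 in both media in all 8 other ways of making the values.

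These 3 genes stand next to each other on the membrane. They occupy place 10 of cells F10, F11 and F12 in field 2 of the spotting grid, in the order YLR334C, CDD1, NUP2. The 14 other genes in those 3 cells, spotted beside them, had a median difference of 0.22 in F1 and -0.54 in YPD, and 5 of the 14 were lower in both media. At the same place in row F, RPS25B, MAP1 and ERF2 in columns 8, 9 and 13 were low in YPD, with differences of -2.26, -1.38 and -1.20, against -0.31, -0.56 and 0.23 in F1. At that place in the next row, YLR161W differed by -3.56 in F1 and -0.54 in YPD and FYV7, a ribosome biogenesis gene, by -2.60 in F1 and -0.58 in YPD. YLR162W, of unknown function, differed by -2.05 in F1 and -0.46 in YPD and MEF1, a mitochondrial translation factor, by -1.95 in F1 and -0.76 in YPD. These 4 genes of the next row were lower mainly in F1, and the part of the position on the membrane was not tested. Over all genes, the difference of a gene and the mean difference of the other genes in its grid cell had a Pearson correlation of 0.266 in F1 and 0.235 in YPD. Another gene lower by at least 1 in both media stood in the same grid cell for 20.5% of the lower genes, against 11.7% of all genes, and for the higher genes the shares were 20.7% and 7.85%.

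**Figure D2:**
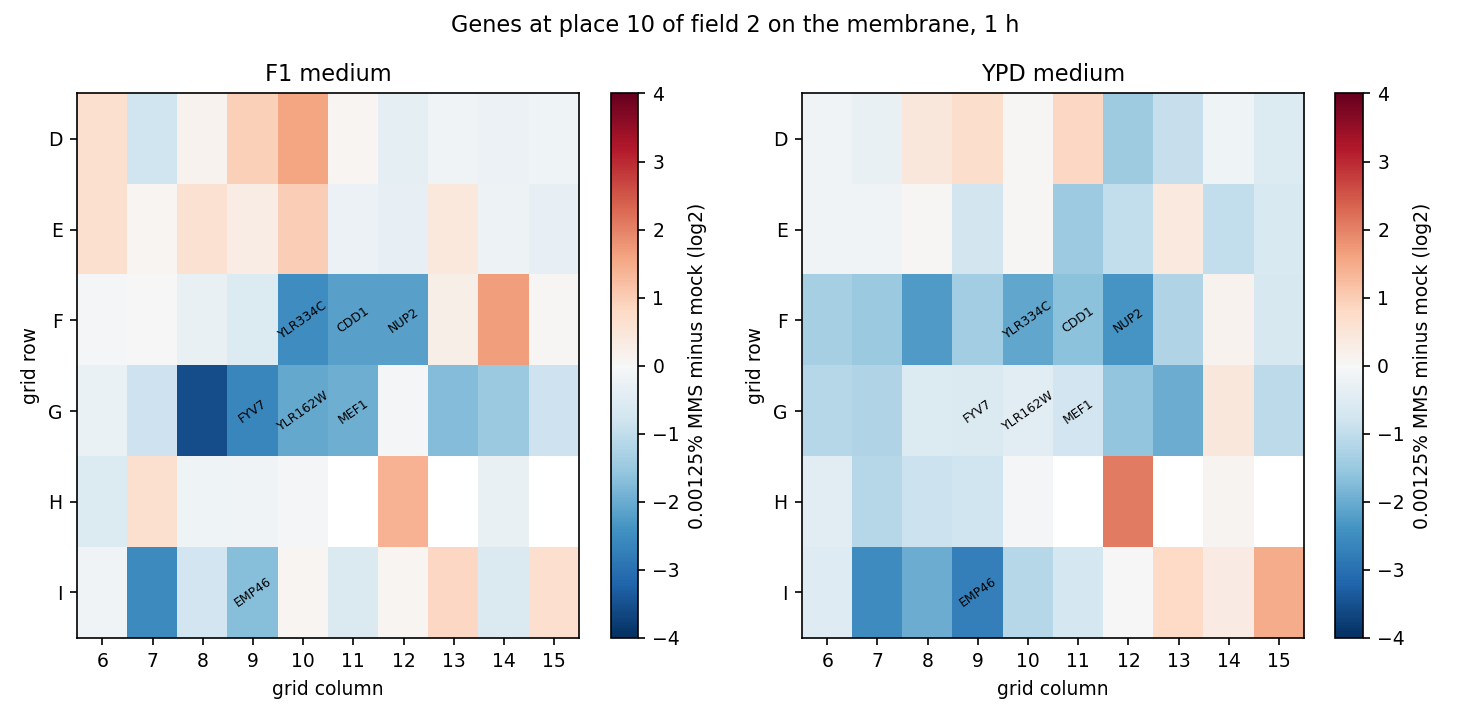
Difference between 0.00125% MMS and mock at 1 h (colour, log2 scale) of the genes at place 10 in rows D to I and columns 6 to 15 of field 2 of the spotting grid, in F1 (left) and YPD (right), with white where no gene was measured. YLR334C, CDD1 and NUP2 stand side by side in row F and are lower in both media, and FYV7, YLR162W and MEF1 in row G are lower mainly in F1.

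Of the other 6 genes that fell, EMP46 stood at the same place of its cell 3 rows further on. DAL81 stood in the same field, at place 8 of cell D11. The 4 other genes of that cell had a median difference of 0.06 in F1 and -0.90 in YPD. The rest lay further off, and the part of the position was not tested for these genes either. DAL81, a transcription factor for genes of nitrogen use, had levels of 0.16 in F1 and 0.43 in YPD with MMS, against 1.84 in F1 and 2.07 in YPD in mock, and its differences were nearly the same in each medium, -1.68 in F1 and -1.65 in YPD (adjusted p 0.00524, limma). EMP46, a lectin-like receptor that carries cargo out of the endoplasmic reticulum, had levels of -1.42 in F1 and -0.37 in YPD with MMS, against 0.28 in F1 and 2.37 in YPD in mock (adjusted p 0.00483, limma). GSP2, a gene for the nuclear transport GTPase Ran, had levels of -1.02 in F1 and -1.50 in YPD with MMS, against 0.49 in F1 and 1.38 in YPD in mock (adjusted p 0.0215, limma). For EMP46 and GSP2 the fall was larger in YPD than in F1, and the difference of GSP2 turned positive when the background was not subtracted. Neither gene had both spots above the background in all 4 arrays. The spots of GSP2 differed by -0.39 and -2.86 in F1, and those of EMP46 by -4.06 and -1.73 in YPD.

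AUS1, a transporter that imports sterols, had levels of 0.88 in F1 and 1.00 in YPD with MMS, against 2.35 in F1 and 2.27 in YPD in mock, and its fall passed with an adjusted p of 0.0162 in limma. MHT1, a methyltransferase that makes methionine from S-methylmethionine, had levels of 1.04 in F1 and -0.27 in YPD with MMS, against 2.12 in F1 and 1.49 in YPD in mock, with an adjusted p of 0.026. YOL106W, of unknown function, had levels of 3.32 in F1 and 2.88 in YPD with MMS, against 4.64 in F1 and 4.70 in YPD in mock, and an adjusted p of 0.0138. In all 3 genes both treated arrays lay below both mock arrays. The spots of MHT1 disagreed in size, with differences of -1.52 and -0.72 in F1 and -3.61 and -0.28 in YPD. Its fall reached 1 in both media in only 2 of the 8 other ways of making the values.

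Larger falls were seen in genes that reached the background. ECM9, a gene of unknown function, had levels of 0.77 in F1 and 1.11 in YPD with MMS, against 3.99 in F1 and 3.04 in YPD in mock, and the smallest p of any gene (adjusted p 1.27e-09, limma), but 1 treated array gave no signal over the background. Its spots disagreed, with differences of -6.13 and -0.47 in F1 and -5.07 and 0.31 in YPD, and without background subtraction its mean difference was 0.70. The genes at the same place in the adjacent cells were low too, RCI50 by -3.23 in F1 and -2.28 in YPD and OCT1, a mitochondrial peptidase gene, by -2.08 in F1 and -3.07 in YPD, each above the background in 2 arrays. SIC1, the inhibitor of the S phase cyclin-dependent kinase, had levels of -2.05 in F1 and -0.92 in YPD with MMS, against 0.49 in F1 and 1.59 in YPD in mock, a difference of -2.54 in F1 and -2.51 in YPD that passed with an adjusted p of 0.00639. SIC1 was above the background in 3 of the 4 arrays. It stood at place 10 of cell I7 in field 2, in the row of EMP46. At that place in the adjacent cells, TAG1 differed by -0.76 in F1 and -1.99 in YPD and DPH5 by -0.13 in F1 and -0.51 in YPD. The part of the position was not tested. In RNA from a whole culture, fewer cells at the stage that expresses a gene and less RNA per cell cannot be told apart.

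Among the 11 genes that rose, 3 make amino acids. ILV3, the dihydroxyacid dehydratase of valine, isoleucine and leucine synthesis, had levels of 4.12 in F1 and 3.20 in YPD with MMS, against 2.92 in F1 and 2.02 in YPD in mock. It rose by almost the same amount in both media, 1.20 in F1 and 1.18 in YPD, and passed narrowly with an adjusted p of 0.0495 in limma. LEU1, the isopropylmalate isomerase of leucine synthesis, had levels of 1.77 in F1 and 0.57 in YPD with MMS, against 0.51 in F1 and -1.50 in YPD in mock, and also passed narrowly (adjusted p 0.0482). CYS3, the cystathionine gamma-lyase that makes cysteine, had levels of 2.67 in F1 and 1.90 in YPD with MMS, against 1.46 in F1 and -0.15 in YPD in mock, and its rise of 1.21 in F1 and 2.05 in YPD passed with an adjusted p of 0.00306. Within each medium the treated array was the higher for all 3.

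TOA2, the small subunit of transcription factor TFIIA, had levels of 3.35 in F1 and 3.26 in YPD with MMS, against 2.07 in F1 and 1.83 in YPD in mock, and both treated arrays lay above both mock arrays (adjusted p 0.0121, limma). MLO127, of unknown function, had levels of 3.01 in F1 and 2.66 in YPD with MMS, against 1.97 in F1 and 1.37 in YPD in mock (adjusted p 0.0457). PFK2, the beta subunit of phosphofructokinase, a control point of glycolysis, had levels of 1.91 in F1 and 2.51 in YPD with MMS, against 0.62 in F1 and 1.06 in YPD in mock (adjusted p 0.0175). TOA2, MLO127 and PFK2, like ILV3, rose by between 1 and 1.5 in each medium, and their media differed little. ILV3, TOA2 and MLO127 stood at place 2 of cells G24, J24 and K24 in field 2. The other genes of those cells had median differences of 0.53, 0.25 and 0.16 in F1 and 1.405, 0.92 and 0.11 in YPD. The part of the position was not tested for these genes.

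The remaining 5 genes that rose changed more in YPD than in F1. PMA1, the proton pump of the plasma membrane, had levels of 3.70 in F1 and 3.90 in YPD with MMS, against 2.64 in F1 and 1.48 in YPD in mock (adjusted p 0.000504, limma). EFT2, which encodes translation elongation factor 2, had levels of 3.74 in F1 and 3.57 in YPD with MMS, against 2.67 in F1 and 1.05 in YPD in mock (adjusted p 0.000236). PDC5, a pyruvate decarboxylase of fermentation, had levels of 5.50 in F1 and 5.44 in YPD with MMS, against 4.46 in F1 and 3.06 in YPD in mock (adjusted p 0.0308). In all 3 the YPD mock array was the lowest of the 4. STU1, a protein of the mitotic spindle, had levels of 1.98 in F1 and 1.30 in YPD with MMS, against 0.74 in F1 and -1.32 in YPD in mock (adjusted p 0.00349). TOM40, the import channel of the mitochondrial outer membrane, had levels of 1.84 in F1 and 2.01 in YPD with MMS, against 0.83 in F1 and -0.93 in YPD in mock (adjusted p 0.000715). The rise of the 5 genes was 1.01 to 1.24 in F1 and 2.38 to 2.94 in YPD. PMA1, EFT2 and PDC5 have closely similar copies in the genome whose signals may not be separated.

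**Figure D3:**
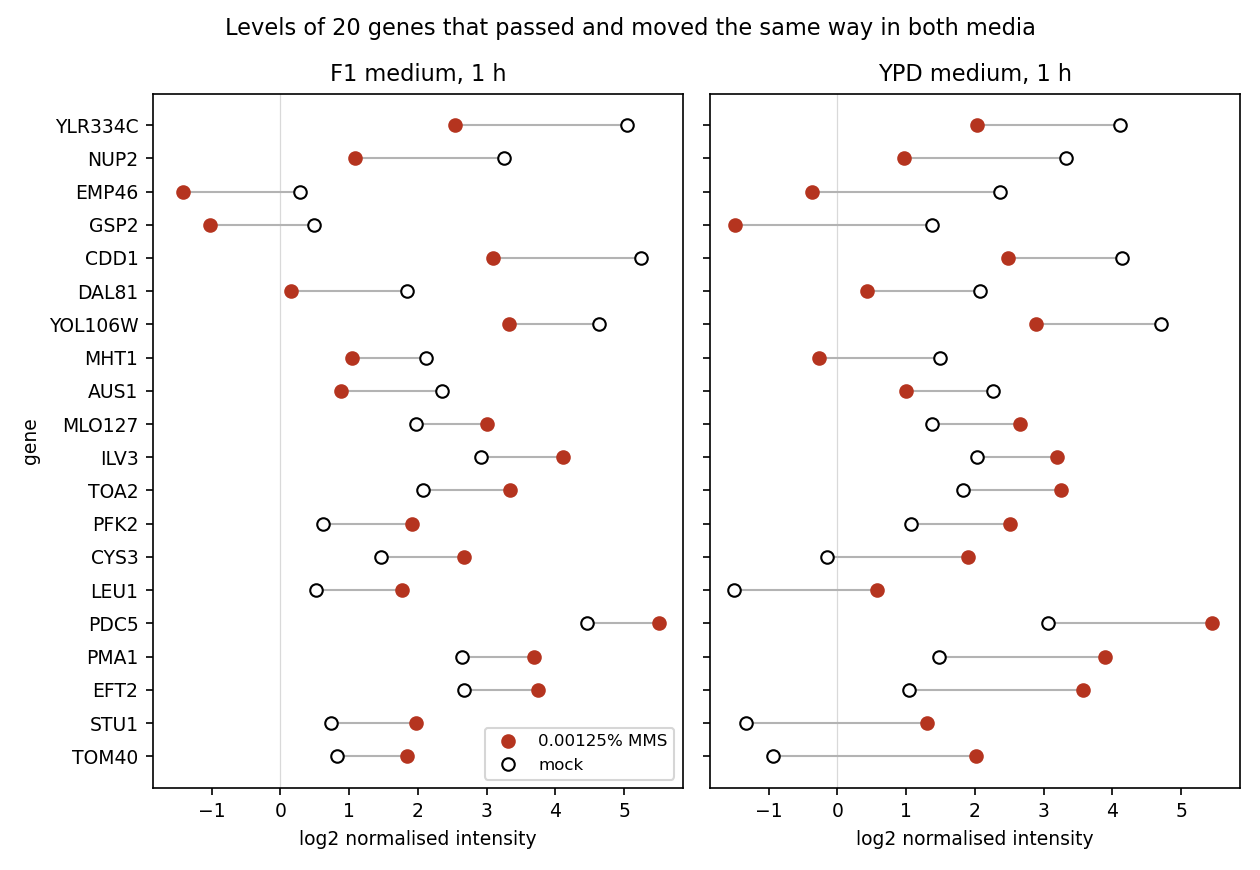
Log2 normalised intensity at 1 h of the 20 genes that passed in limma, changed by at least 1 in the same direction in both media and lay above the background in all 4 arrays, in F1 (left panel) and YPD (right panel), with 0.00125% MMS filled and mock open and 1 array per point. The 9 genes at the top are lower and the 11 at the bottom higher with MMS, and the gaps of PDC5, PMA1, EFT2, STU1 and TOM40 are wider in YPD than in F1.

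A further group passed through YPD alone. HSP150, a secreted protein of the cell wall, had levels of 4.00 in F1 and 3.45 in YPD with MMS, against 4.18 in F1 and -1.30 in YPD in mock, so that it differed by -0.18 in F1 and 4.76 in YPD (adjusted p 2.3e-07, limma). PMP2, a small regulator of the proton pump, had levels of 3.79 in F1 and 3.81 in YPD with MMS, against 4.12 in F1 and -0.83 in YPD in mock (adjusted p 1.28e-06). In YPD with 0.0125% MMS, HSP150 read 3.01 and PMP2 3.53, close to the low-dose array, so for these genes the YPD mock array is the one that stands apart on its membrane.

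The same shape was seen in HXT6 and HXT7, near-identical glucose transporters that differed by 3.93 and 3.63 in YPD but by -0.04 and 0.14 in F1. Both lay at or below the background in the YPD mock array, and their spots disagreed there, with YPD differences of 1.92 and 5.49 for HXT6 and 1.62 and 5.16 for HXT7. The cell wall gene SED1 was higher in both media, by 0.98 in F1 and 3.37 in YPD (adjusted p 1.08e-06). HTA1, for histone H2A, differed by 0.65 in F1 and 3.25 in YPD, and CDC19, for pyruvate kinase, by 0.66 in F1 and 2.81 in YPD. The spots of HTA1 disagreed in YPD, with differences of 1.05 and 4.99. Above the background in all 4 arrays, 63 genes were higher by at least 2 in YPD with an F1 difference of under 0.5 in size, 23 were lower by at least 2 in YPD under the same condition, and 6 were higher by at least 2 in F1 with a YPD difference of under 0.5 in size. With 1 mock array in YPD, an effect of MMS in that medium and a fault of that array cannot be told apart.

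Ranked by the smaller of the changes in the 2 media, the genes with the largest agreeing rise were faint in mock. PGM2, a phosphoglucomutase of glycogen and trehalose metabolism, had levels of -0.21 in F1 and 0.12 in YPD with MMS, against -1.91 in F1 and -1.82 in YPD in mock, and did not pass (adjusted p 0.139, limma). AFT1, the transcription factor for iron uptake genes, had levels of 0.51 in F1 and -0.21 in YPD with MMS, against -2.06 in F1 and -1.87 in YPD in mock (adjusted p 0.068). The spots of AFT1 differed by 2.70 and 2.72 in F1 but by 3.12 and 0.20 in YPD. ERG24, a reductase of ergosterol synthesis, had levels of -0.29 in F1 and -0.57 in YPD with MMS, against -2.37 in F1 and -2.15 in YPD in mock (adjusted p 0.0765). The mock levels of all 3 genes lie close to the floor set by the pseudocount, and their size depends on it.

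SNQ2, a drug efflux pump, differed by 1.58 in F1 and 1.74 in YPD, the phosphatidylserine decarboxylase gene PSD1 by 1.54 in F1 and 1.55 in YPD, and the nucleoporin gene NUP49 by 1.49 in F1 and 2.12 in YPD. The septin-associated NIS1 differed by 2.51 in F1 and 1.55 in YPD and the sulfonate dioxygenase gene JLP1 by 1.46 in F1 and 1.72 in YPD. The protease gene RCE1 differed by 1.44 in F1 and 1.65 in YPD and BTT1, for a subunit of the nascent chain complex, by 2.04 in F1 and 1.71 in YPD. YGL239C, which led the ranking, differed by 1.71 in F1 and 2.04 in YPD and YOR012W by 1.73 in F1 and 1.57 in YPD. None of these 9 genes passed, with adjusted p from 0.0765 to 0.254 in limma. Spots disagreed for NUP49 in F1, with differences of 2.94 and 0, and for NIS1 in YPD, with 0.19 and 2.67. On the lower side, beside NUP2, YLR334C, EMP46, CDD1, DAL81 and GSP2, which passed, 6 genes of the ranking did not. These were SFT1, for a Golgi SNARE, with -1.49 in F1 and -2.10 in YPD, AIM41 with -1.60 in F1 and -1.78 in YPD and BUG1 with -1.70 in F1 and -1.62 in YPD. RGI2 differed by -1.49 in F1 and -1.60 in YPD, TRI1 by -1.45 in F1 and -1.83 in YPD and YLR001C by -1.44 in F1 and -1.90 in YPD. The adjusted p of these 6 genes lay between 0.076 and 0.242.

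The ribonucleotide reductase genes come next, as the best known targets of the damage checkpoint. RNR1, the large subunit, had levels of 1.04 in F1 and 0.83 in YPD with MMS, against -0.35 in F1 and -0.99 in YPD in mock. Both treated arrays lay above both mock arrays, by 1.39 in F1 and 1.81 in YPD. The mean of 1.60 ± 0.54 (SE from the limma trend, n = 2 pairs) did not pass (adjusted p 0.0945, limma). RNR2, a small subunit, had levels of 2.44 in F1 and 1.94 in YPD with MMS, against 1.47 in F1 and 1.18 in YPD in mock, and likewise did not pass (adjusted p 0.221). In both genes the treated array was the higher in each medium.

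RNR4, the other small subunit, went opposite ways, with -0.65 in F1 and 1.51 in YPD. RNR3, the large subunit known for its strong induction by DNA damage, had levels of -2.35 in F1 and -1.58 in YPD with MMS, against -1.66 in F1 and -2.31 in YPD in mock, and had signal over the background in 2 of the 4 arrays. HUG1, another checkpoint target, was not analysed here. DUN1, the kinase that relays the signal to these genes, was above the background in 1 array, with -0.11 in F1 and 0.18 in YPD.

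**Figure D4:**
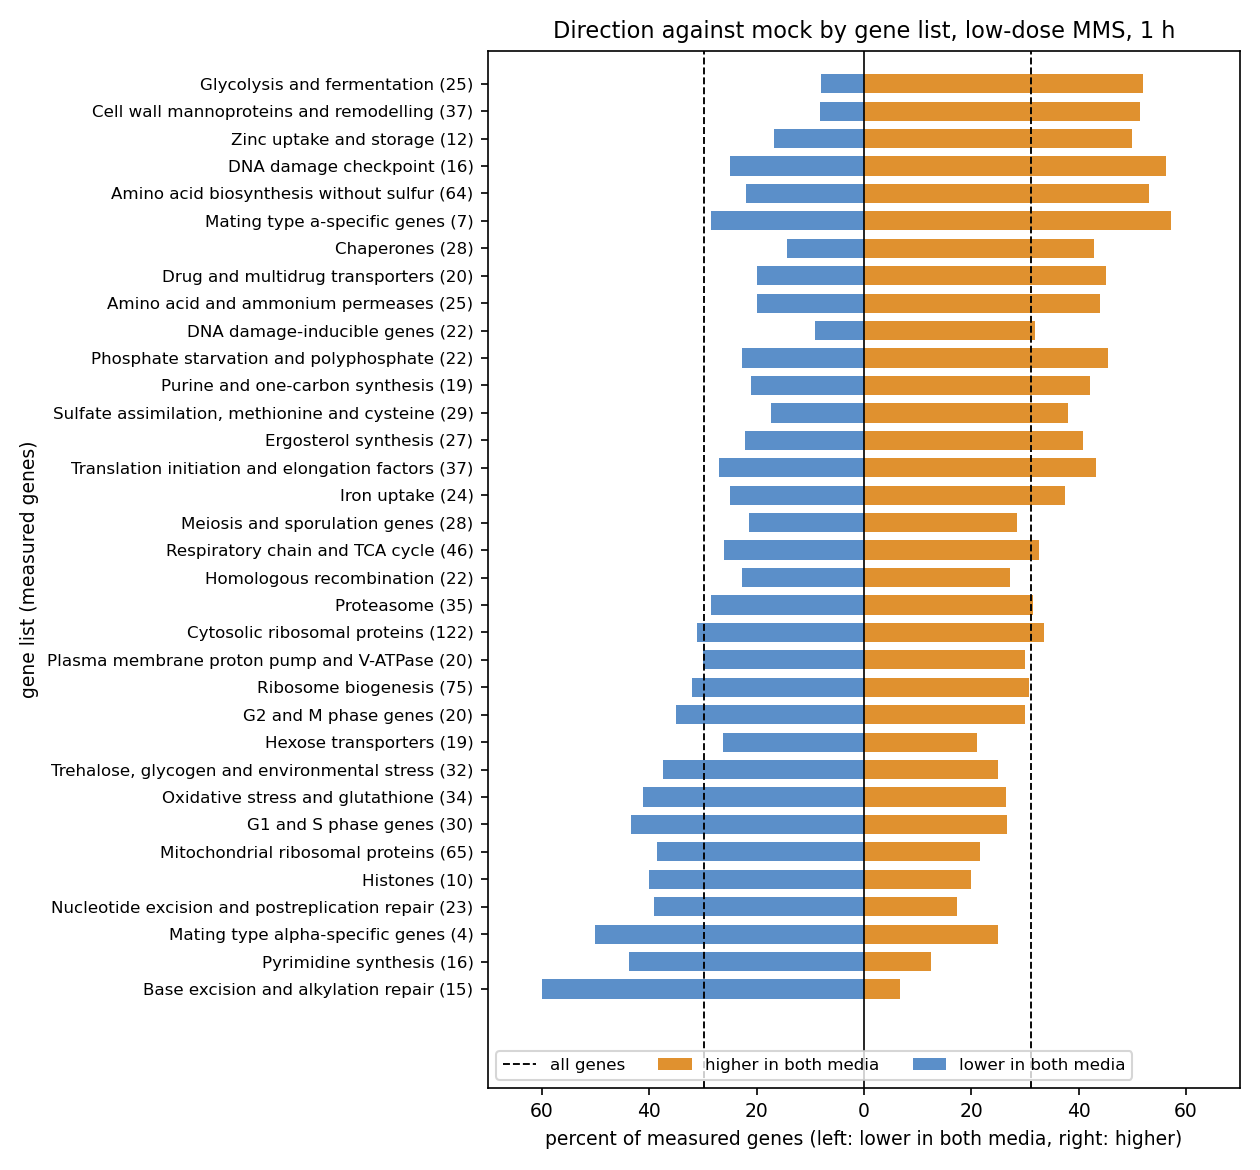
Share of the measured genes of each of 34 gene lists that were higher (right, orange) or lower (left, blue) than mock in both media at 1 h of 0.00125% MMS, with the number of measured genes in brackets. Dashed lines mark the shares among all 6094 genes, 31.1% higher and 29.7% lower, and the lists are ordered by higher minus lower share, from glycolysis and fermentation to base excision and alkylation repair.

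Among all genes 31.1% were higher and 29.7% lower in both media, and each list below is to be read against these shares. Of 22 measured DNA damage-inducible genes, 7 (31.8%) were higher and 2 (9.09%) lower in both media, and none passed. The share of higher genes was thus near that of all genes. Their median difference was 0.06 in F1 and 0.33 in YPD, against 0.02 and 0.00 over all genes. DDI1, a ubiquitin-binding protein that shares its promoter with MAG1, differed by 1.25 in F1 and 0.90 in YPD. MAG1 itself, the 3-methyladenine glycosylase, had levels of -0.63 in F1 and -1.02 in YPD with MMS, against -0.84 in F1 and -0.82 in YPD in mock. Its differences of 0.21 in F1 and -0.20 in YPD have no common direction. MAG1 was above the background in 3 of the 4 arrays. Its spots disagreed, with differences of 3.20 and -2.83 in F1 and 0.16 and -1.28 in YPD, so these arrays do not show whether MAG1 changed. UBI4, the polyubiquitin gene, differed by -0.83 in F1 and -0.98 in YPD and did not pass, and DDR48, a stress gene, differed by -0.39 in F1 and -0.18 in YPD.

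Of 15 genes of base excision and alkylation repair, 9 (60%) were lower and 1 (6.67%) higher in both media, and none passed (median -0.27 in F1 and -0.57 in YPD). NTG2, a glycosylase, differed by -0.86 in F1 and -1.34 in YPD, MGT1, which removes methyl groups directly from guanine, by -0.27 in F1 and -1.30 in YPD. UNG1, the uracil glycosylase, differed by -1.67 in F1 and -2.34 in YPD with signal above the background in 2 arrays only. Only 7 of the 15 genes were above the background in all 4 arrays. Of 23 genes of nucleotide excision and postreplication repair, 4 (17.4%) were higher and 9 (39.1%) lower in both media. RAD5, which acts at stalled forks, differed by 0.79 in F1 and 0.71 in YPD and RAD3, a helicase, by -0.22 in F1 and -0.29 in YPD.

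No recombination or checkpoint gene passed. Of 22 recombination genes, 6 (27.3%) were higher and 5 (22.7%) lower in both media. RAD54, a DNA translocase of recombination, differed by -0.51 in F1 and 0.32 in YPD. RFA1, a subunit of the single-strand binding protein, differed by -0.49 in F1 and -0.37 in YPD and SGS1, a helicase, by 0.59 in F1 and 0.35 in YPD. Of 16 checkpoint genes, 9 (56.25%) were higher and 4 (25%) lower in both media, against 31.1% and 29.7% of all genes. Only 7 of the 16 were above the background in all 4 arrays. By at least 1 in both media, 0 were higher and 2 lower. The kinase gene MEC1 differed by 0.95 in F1 and 0.29 in YPD, the clamp gene MEC3 by 0.62 in F1 and 0.88 in YPD, and LCD1, the partner of Mec1, by -1.78 in F1 and -1.03 in YPD.

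Amino acid synthesis genes were more often higher than lower. Against 31.1% higher and 29.7% lower in both media and 1.17% that rose among all genes, of 64 genes of amino acid synthesis without sulfur 34 were higher and 14 lower in both media, 7 rose and 1 (BAT2, above the background in 1 array) fell in the test, and the median difference was 0.16 in F1 and 0.31 in YPD. Beside ILV3 and LEU1, the genes that rose were TYR1, HOM2, ASN1, ASN2 and BAT1, whose differences lay between 0.21 and 0.58 in F1 and between 2.10 and 2.66 in YPD, so that their calls rest on YPD. In YPD the spots of BAT1 differed by 0.34 and 4.49, of TYR1 by 1.45 and 4.09 and of ASN2 by 1.28 and 3.29. Those of HOM2, at 2.52 and 2.87, and of ASN1, at 2.54 and 1.74, were closer. LEU9, a leucine synthesis enzyme, had levels of 1.15 in F1 and 1.52 in YPD with MMS, against 0.20 in F1 and -0.23 in YPD in mock (adjusted p 0.0875). Of 29 genes of sulfate assimilation, methionine and cysteine synthesis, 11 were higher and 5 lower in both media and CYS3 alone passed. MET10, a subunit of sulfite reductase, differed by 1.36 in F1 and 1.79 in YPD and CYS4, the enzyme before CYS3, by 0.86 in F1 and 1.54 in YPD, without passing.

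Glycolysis and fermentation genes were higher mainly in YPD. Of 25 genes, 13 were higher and 2 lower in both media and 8 rose in the test (1.17% of all genes did), with a median difference of 0.16 in F1 and 1.79 in YPD. PFK2 and PDC5 were the 2 that changed by at least 1 in both. HXK2, the main hexokinase, differed by 0.62 in F1 and 2.66 in YPD. GLK1, a glucokinase at or below the background in the YPD mock array, differed by 0.30 in F1 and 3.59 in YPD. PGK1, a later enzyme of the pathway, differed by 0.24 in F1 and 3.14 in YPD, and PDC6 by 0.54 in F1 and 3.01 in YPD, each with the larger difference in YPD. PDC1, the main pyruvate decarboxylase, had levels of 6.15 in F1 and 5.59 in YPD with MMS, against 5.44 in F1 and 4.60 in YPD in mock, and did not pass (adjusted p 0.567).

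Cell wall genes were also higher mainly in YPD. Of 37 cell wall genes, 19 were higher and 3 lower in both media (median 0.03 in F1 and 1.04 in YPD), and SED1 and HSP150 passed. TIR4, a mannoprotein, had levels of 1.92 in F1 and 1.78 in YPD with MMS, against 0.88 in F1 and 0.64 in YPD in mock (adjusted p 0.118). GAS3, of a family of glucan-modifying enzymes, had 1.94 in F1 and 1.67 in YPD with MMS, against 0.91 in F1 and 0.62 in YPD in mock (adjusted p 0.144). KRE6, for glucan synthesis, differed by 1.23 in F1 and 1.96 in YPD and did not pass. Of 20 genes of the proton pump and the vacuolar ATPase, 6 were higher and 6 lower in both media, 5 rose (1.17% of all genes) and 1 fell (0.968%). The one that fell was STV1, above the background in 2 arrays, with -2.25 in F1 and -2.32 in YPD. Beside PMA1 and PMP2, those that rose were PMA2 with 0.70 in F1 and 2.26 in YPD, VPH1 with 0.95 in F1 and 1.82 in YPD and VMA2 with 0.40 in F1 and 2.19 in YPD. PMP2 passed through YPD alone.

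Of 28 chaperone genes, 12 were higher and 4 lower in both media and 3 rose (1.17% of all genes), with medians of 0.12 in F1 and 0.66 in YPD. SSA2, an Hsp70, differed by 0.70 in F1 and 2.01 in YPD, and HSP82, an Hsp90, by 0.21 in F1 and 2.39 in YPD. SSC1, the mitochondrial Hsp70, differed by 0.69 in F1 and 0.98 in YPD without passing. Genes of oxidative stress and glutathione leaned the other way, with 9 of 34 higher and 14 lower in both media and GTT2 alone passing, by 0.25 in F1 and 2.46 in YPD. GRX4 and GRX2, glutaredoxins, differed by -1.10 in F1 and -1.31 in YPD and by -1.18 in F1 and -0.93 in YPD. SOD1, the cytosolic superoxide dismutase, differed by -0.68 in F1 and -1.07 in YPD, and none of the 3 passed. Of 35 proteasome genes 11 were higher and 10 lower in both media, with RPN8 at -2.25 in F1 and -1.34 in YPD and PRE1 at -0.69 in F1 and -1.29 in YPD, without passing.

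Ribosomal protein genes, 120 of 122 of them above the background in all 4 arrays, had no common direction. Of the 122 cytosolic genes, 41 were higher and 38 lower in both media, close to the shares of all genes, none passed, and the median was 0.07 in F1 and -0.12 in YPD. RPL16B differed by 0.84 in F1 and 1.26 in YPD, RPS30B by 1.19 in F1 and 0.82 in YPD and RPS9A by 0.78 in F1 and 1.18 in YPD. Of 75 ribosome biogenesis genes 23 were higher and 24 lower. Of 65 mitochondrial ribosomal protein genes 14 were higher and 25 lower. Of 46 respiratory genes 15 were higher and 12 lower. The ATP synthase genes ATP1 (0.49 in F1 and 2.40 in YPD) and ATP2 (0.67 in F1 and 1.90 in YPD) rose. ATP4 (-2.22 in F1 and -1.69 in YPD), of the same enzyme and at the background in 1 array, fell, and COX5B (-1.10 in F1 and -1.09 in YPD) did not pass.

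Of 19 purine and one-carbon genes 8 were higher and 4 lower in both media, with GUA1, for guanine synthesis, at 1.31 in F1 and 0.99 in YPD. Of 16 pyrimidine genes 2 were higher and 7 lower, CDD1 among them, and DUT1, the dUTPase, differed by -1.04 in F1 and -0.58 in YPD without passing. Of 20 genes of the G2 and M phases 6 were higher and 7 lower in both media. The mitotic exit kinase gene CDC15 differed by 1.22 in F1 and 2.13 in YPD and did not pass (adjusted p 0.067). Over the 34 lists, both medians lay above 0 in 15 and below 0 in 6, and in 13 they had opposite signs.

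The 30 min arrays of the same strain, dose and media share no array with the 1 h comparison, but the arrays of the 2 times stand far apart. Between times the Pearson correlation of log2 levels was 0.349 to 0.456 over all array pairs, 0.406 in F1 and 0.456 in YPD with MMS, against 0.404 and 0.432 in mock, while within a time it was 0.739 to 0.941. The cause was not tested, and directions are therefore set beside each other as they stand. At 30 min no gene passed in limma, and 352 had an unadjusted p under 0.05. Of the 122 genes higher at 1 h, 35 (28.7%) were higher in both media at 30 min, and of the 171 lower at 1 h, 48 (28.1%) were lower in both, against 26.2% of all genes in each direction. Both shares are near that of all genes. Of the 20 genes described first, 11 had their 1 h direction in both media at 30 min, 5 of the 9 lower and 6 of the 11 higher.

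YLR334C differed at 30 min by -1.08 in F1 and -1.21 in YPD, CDD1 by -1.30 in F1 and -0.51 in YPD, NUP2 by -1.09 in F1 and -0.38 in YPD and YOL106W by -0.71 in F1 and -1.04 in YPD. MLO127 differed at 30 min by 0.89 in F1 and 1.06 in YPD and TOA2 by 0.60 in F1 and 0.70 in YPD, while PMA1 differed by 3.15 in F1 and 0.65 in YPD. DAL81 and MHT1 went the other way at 30 min, with 0.84 in F1 and 0.92 in YPD and with 0.48 in F1 and 1.00 in YPD. In the test of dose by time, which sets the 1 h difference against the 30 min difference, no gene passed in limma and 553 had an unadjusted p under 0.05.

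**Figure D5:**
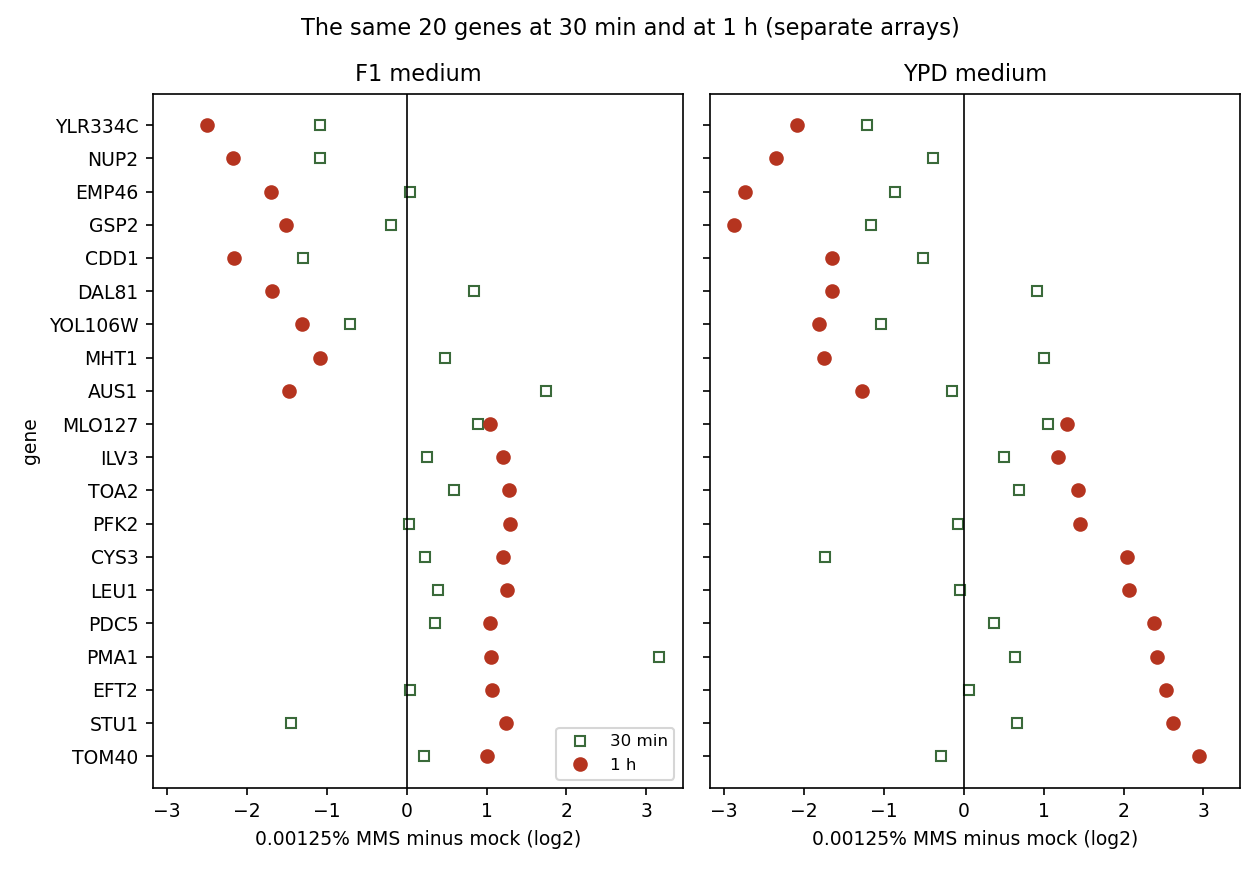
Difference between 0.00125% MMS and mock (x axis, log2 scale) of the same 20 genes at 30 min (open squares) and 1 h (filled circles) in F1 (left panel) and YPD (right panel), each point from 1 pair of arrays. YLR334C, NUP2, CDD1, GSP2 and YOL106W are lower and MLO127, ILV3, TOA2, PDC5, PMA1 and EFT2 higher at both times in both media, and DAL81 and MHT1 change sides.

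The higher dose, 0.0125% MMS, was set against 0.00125% at 1 h in the same media, so this comparison shares its low-dose arrays with the one against mock. At the higher dose 31.4% of genes in F1 and 33.4% in YPD lay at or below the background, against 16.1% and 23.1% at the low dose. In limma 27 genes (0.443%) passed, 18 higher and 9 lower at the higher dose. None passed without the trend, and median centring, under which the median over all genes shifted by 0.21, gave 390 higher and 22 lower. Of the genes above, RNR2 was higher at the higher dose by 1.67 ± 0.19 (adjusted p 5.11e-05, limma, n = 2 pairs) and RNR1 by 1.23 ± 0.24 (adjusted p 0.0241). The values after ± are SEs that limma drew towards its trend, not the spread of the 2 pairs alone. YNL134C, an oxidoreductase gene of unknown substrate, was higher by 2.72 (adjusted p 8.99e-06), while at the low dose it differed from mock by -0.53 in F1 and -1.06 in YPD and did not pass.

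CYS3 was higher at the higher dose by 1.06 (adjusted p 0.00599). CDD1, YLR334C, YLR162W, MEF1 and FYV7, the neighbours on the membrane, were also higher at the higher dose than at the low dose, by 1.77, 1.62, 2.19, 1.91 and 1.42, and NUP2 differed by 0.81 without passing (adjusted p 0.285). CDD1 read 5.15 in F1 and 3.96 in YPD at the higher dose, and for each of the 6 genes the low-dose array was the lowest of the 3 of its membrane. YOL106W was lower at the higher dose, with a difference of -0.95 (adjusted p 0.0218). ILV3, PFK2, TOA2 and MLO127 differed between doses by 0.28, 0.16, 0.43 and 0.42, with standard errors between 0.17 and 0.19, and did not pass.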

How the data were processed

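The deposited per-array files hold spot intensity in scanner units, as the integral of each spot and the integral minus its local background, per the file headers. The image software and array design are not given in the sources used here. Each membrane carries 6912 positions of 2 spots, 6102 of them with an open reading frame and 6094 distinct genes; 5567 names were updated through a RefSeq gene table and 527 kept from the files. The 14 background-subtracted arrays were divided by their median positive value, and negative values were set to 0. Each spot was given a pseudocount of 0.187 (the 10th percentile of positive values) and turned into log2 intensity from the deposited values. The log2 values were averaged per gene, and the 14 arrays were then quantile normalised. Low-dose and mock arrays were fitted in limma 3.58.1 (R 4.3.3) with medium as a block (lmFit, eBayes with a trend), and p-values were adjusted over all genes by Benjamini-Hochberg. Array number and brightness limit the precision. The labels carry no replicate numbers; same-medium arrays share a culture and a membrane, so the block follows the design.

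Named genes were the smallest p per direction, the 12 per direction with the largest agreeing difference above the background, the 5 per direction with opposite signs, the 3 leading genes of each list, and fixed damage and stress genes; others were chosen after their values were seen. The members and the 34 gene lists were chosen with earlier results of these data known. Alternatives covered normalization, background, pseudocount, spots, filters, the authors' series table, the block and the arrays in the fit. Figures were drawn in Python 3.11.15.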

Additional observations from a re-analysis of the deposited data

Results flagged for a closer look

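Of the 21 genes above the background in all 4 arrays that moved by at least 1 in opposite directions in the media, the 5 leading genes of each kind are given, and the difference between media was not tested for any of them. With MMS, 5 were higher in F1 and lower in YPD. VTC5, for vacuolar polyphosphate, differed from mock by 1.46 in F1 and -1.32 in YPD, and the mitochondrial gene MDM34 by 1.62 in F1 and -1.19 in YPD. NNF2 differed by 1.52 in F1 and -1.13 in YPD, the folylpolyglutamate synthetase homologue RMA1 by 1.88 in F1 and -1.11 in YPD, and SPO11, which makes meiotic DNA breaks, by 1.16 in F1 and -1.11 in YPD.

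The other 5 were lower in F1 and higher in YPD. DIF1, which controls the location of ribonucleotide reductase subunits, differed by -1.92 in F1 and 1.59 in YPD, and the cell wall gene TIR1 by -1.63 in F1 and 1.41 in YPD. RGI1, of energy metabolism, differed by -1.35 in F1 and 1.98 in YPD, the pyruvate kinase gene PYK2 by -1.30 in F1 and 1.68 in YPD, and IZH3, of zinc homeostasis, by -1.29 in F1 and 1.32 in YPD. Differences of at least 1 in opposite directions were found in 80 genes (1.31%); the count was 0 without background subtraction, 6 with the larger pseudocount, 17 in the authors' series table, and 165 and 184 with the first and second spot.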

How the results depend on the processing

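The calls of the low dose against mock depended on the processing. Against 130 genes, 2 passed after quantile normalization over the 4 arrays, with a pseudocount 4 times larger, in the authors' series table or with both spots above the background, 3 after loess, 5 with the first spot only and 5 with the second, 83 among genes above the background and 456 without background subtraction (303 higher, 153 lower; 46 of the 130 remained). None passed with median centring, without the trend (790 at an unadjusted p under 0.05), with 6 or 12 arrays in the fit (964 and 800), without the replicate block (320) or, in the 12-array fit, without the F1 or the YPD arrays of 1 h (range 0 to 0; 671 and 342). The robust prior, chosen after seeing the data like the fits without the trend and with both spots, gave the same 130 genes. The spread in the main fit already came wholly from the trend, so the robust prior is no separate check.

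Against 293 genes that moved the same way, the counts were 59 without background subtraction (52 higher, 7 lower, against 122 and 171; 12 shared), 30 with the larger pseudocount, 88 in the series table, 464 and 445 with the first and second spot, 137 above the background, 82 with both spots above it, 1253 at a threshold of 0.5 and 77 at 1.5. Low dose by time gave 1 gene without background subtraction. High minus low dose gave 27, against 412 with median centring, 160 with loess and 0 above the background or without the trend. The lists with a median above 0 numbered 17, and 26 with median centring, under which the median over all genes shifted by 0.11.

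Of the 20 genes described first, 19 kept their direction in both media in all 8 ways of making the values, and GSP2 did not. Among the other settings, 5 of the 20 passed only in the above-background and robust fits, and the robust fit repeats the main calls. Without background subtraction the mean difference turned to 0.63 for GSP2, 0.70 for ECM9, 0.0591 for GRX2, 0.32 for ATP4, -0.15 for SGS1 and -0.35 for MEC3, and the F1 minus YPD gap to 0.0123 for RNR3, 0.10 for RNR4, 0.47 for DUN1, 0.28 for RAD54 and -0.20 for RMA1. Median centring turned DDR48 to 0.044, and the second spot the gap of MAG1 to -1.56. Without 1 of the 1 h sets, HSP150 ranged between -0.18 and 4.76, PMP2 between -0.33 and 4.64 and HXT6 between -0.0406 and 3.93, the lower value in each case without YPD. The cause was not tested. Brightness near the background limits the lower genes most.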

Other observations

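Among all genes 31.1% were higher and 29.7% lower in both media. Of 25 amino acid and ammonium permease genes 11 were higher and 5 lower in both media, with medians of 0.08 in F1 and 0.40 in YPD, and none passed. Of 22 phosphate genes 10 were higher and 5 lower, of 12 zinc genes 6 and 2, of 27 ergosterol genes 11 and 6, and of 20 drug transporter genes 9 and 4, again with none that passed. Of 19 hexose transporter genes 4 were higher and 5 lower. HXT1, HXT6 and HXT7 passed through YPD alone, HXT1 with -0.02 in F1 and 2.56 in YPD. Of 24 iron uptake genes 9 were higher and 6 lower. FIT3, a cell wall mannoprotein that retains siderophore iron, fell by 3.71 in F1 and 1.09 in YPD (adjusted p 0.00349, limma) and was above the background in 3 arrays. FRE6, a vacuolar reductase, differed by -1.51 in F1 and -5.07 in YPD (adjusted p 0.000504) and was above it in 2.

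Of 37 translation factor genes 16 were higher and 10 lower in both media, and EFT2, PAB1 and HEF3 rose. PAB1, the poly(A)-binding protein, differed by 0.11 in F1 and 2.46 in YPD, and HEF3, a homologue of elongation factor 3, by 0.88 in F1 and 3.93 in YPD with signal in 3 arrays. Trehalose, glycogen and environmental stress genes had 8 of 32 higher and 12 lower in both media, and G1 and S phase genes 8 of 30 higher and 13 lower, none of which passed. Of 28 meiosis and sporulation genes, which are silent in growing haploid cells, 8 were higher and 6 lower, and 15 lay above the background in all 4 arrays. Of 10 histone genes 2 were higher and 4 lower, and HTA1 rose.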
